A study of Mus musculus with 6 samples.

Results

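Trem2, Tyrobp, Spp1, Gpnmb, Cd9, Cd63, Lgals3 and Apoe are 8 genes whose joint expression is used to describe lipid-associated macrophages, the foam-like cells of adipose tissue, atherosclerotic plaques and tumors. They were taken by gene symbol, each found once, from the 23424 genes of 6 RNA-seq count tables of tumor-associated macrophages (TAMs). Both subsets came from wild-type, untreated C57Bl/6J female mice that were 8 weeks old when YUMM1.7, a mouse melanoma line, was placed in the skin, and the tumors were taken at day 21. Live+CD45+CD11b+ cells, which the study's methods also describe as lineage-negative, were sorted by their surface F4/80, the product of Adgre1, into F4/80high TAMs (n = 3) and F4/80low TAMs (n = 3). The study describes the subsets as isolated from 10 pooled tumors, with the RNA-seq data gathered over 3 independent experiments, so a value is an average over animals. Neither the study nor the labels state that libraries with the same replicate number came from the same experiment; libraries of 1 number are called a pair because they deviated together from their subset means. Replicates 1 and 2 form batch 1 and replicate 3 forms batch 2, as drawn in the study's supplement. Libraries of 1 number therefore also share a batch, and their joint deviation cannot tell pairing from batch. Within batch 1 alone, the difference of replicates 1 and 2 correlated between the subsets at 0.242.

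TREM2 is a surface receptor for lipids, lipoproteins and dying cells, and it has no signalling tail of its own: it needs the adaptor DAP12, the product of Tyrobp, which recruits the kinase SYK. Apolipoprotein E, made in large amounts by macrophages, carries cholesterol out of the cell and is also a ligand of TREM2. Osteopontin, the product of Spp1, is a secreted phosphoprotein that binds integrins and CD44. GPNMB is a glycoprotein of lysosomes and melanosomes, CD9 and CD63 are tetraspanins of the plasma membrane and of late endosomes and exosomes, and galectin-3 (Lgals3) is a lectin that binds damaged lysosomes and cell-surface sugars. The comparison of the subsets asks whether these genes differ between F4/80high and F4/80low TAMs as a group or one by one.

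The 8 genes did not share 1 direction. Trem2 and Apoe had the larger differences, with means in F4/80high TAMs of 2.29 and 2.19 times those in F4/80low TAMs, Spp1 and Cd63 were modestly higher in F4/80high TAMs in 3 of 3 replicate pairs, Tyrobp and Cd9 were higher in F4/80low TAMs in 3 of 3 pairs, and Gpnmb and Lgals3 took different directions in different pairs. All 8 passed the count filter. With the batch as a term, edgeR's quasi-likelihood test called 0 of 8 members, as it called 0 of all 14645 protein-coding genes tested (0%), where a call required more than a 2-fold difference (log2 above 1 in size) with an adjusted p under 0.05. At an unadjusted p under 0.05 it held 3 members (Apoe, Trem2 and Cd9) beside 1113 of all genes (7.6%), and DESeq2 with the same term called 0 members and 150 genes, of which F4/80high TAMs had the higher level of 46 (0.314%) and F4/80low TAMs of 104 (0.71%). With the replicate number as a block, that is, comparing the subsets within each pair, edgeR called 76 genes, 34 of them higher in F4/80high TAMs (0.232% of those tested) and the other 42 lower there (0.287%), and 2 of the 34 were Trem2 and Apoe. The remaining 6 members were called by none of these 3 fits.

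The libraries held 16045281 to 43604373 counts, and the smallest were the pair of batch 2. There, Lars2, Gm23935 and Gm15564 held 17.1% (F4/80high) and 16.1% (F4/80low) of the counts between them, and 0.378% to 0.609% in batch 1. Adgre1 stood at 273, 539 and 360 normalized CPM (counts rescaled to a common library size) in F4/80high replicates 1, 2 and 3 and at 243, 327 and 183 in F4/80low, higher in F4/80high in 3 of 3 pairs. Its log2 fold change was 0.67 (SE 0.30) with an adjusted p of 0.664 in edgeR with the batch term.

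Of the receptor and its adaptor, Trem2 (ENSMUSG00000023992, chr17:48346401-48354147, plus strand, GRCm38) was measured at 117, 323 and 52.3 CPM in F4/80high replicates 1, 2 and 3, and at 52.8, 144 and 17.7 CPM in F4/80low. Each F4/80high library lay above its own F4/80low partner, yet F4/80low replicate 2 lay above F4/80high replicates 1 and 3, so the subsets overlapped. The means were 164 ± 141 CPM (SD, n = 3) and 71.6 ± 65.4 CPM (SD, n = 3). Within pairs the F4/80high library had 2.22, 2.24 and 2.96 times the level of its partner. The log2 fold change was 1.29 (SE 0.45, adjusted p = 0.540) in edgeR with the batch term and 1.28 (SE 0.20, adjusted p = 0.0381) with the replicate block. The estimate hardly moved between the fits, and its SE became smaller once the pairs were matched. With the block and without replicate 2 of both subsets, edgeR gave Trem2 an adjusted p of 0.0649, and within batch 1 alone 0.195, with log2 fold changes of 1.31 and 1.16. Without F4/80high replicate 2, the fit with the batch term gave Trem2 a log2 fold change of 0.77.

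Tyrobp (ENSMUSG00000030579, chr7:30413760-30417585, plus strand), which encodes the partner that TREM2 needs, differed in the other direction. It was measured at 437, 452 and 278 CPM in F4/80high TAMs and at 510, 554 and 355 CPM in F4/80low TAMs. Every F4/80low library lay above its partner, by 1.17, 1.23 and 1.28 times, while F4/80low replicate 3 lay below F4/80high replicates 1 and 2. Its log2 fold change came to -0.29 (SE 0.21, adjusted p = 0.746 in edgeR with the batch term, 0.664 with the block), so Trem2 had a higher estimate in F4/80high TAMs and its adaptor did not. Tyrobp was also the steadiest member, with 1.99 times between its highest and lowest library, against 18.3 times for Trem2.

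Of the secreted proteins, Apoe (ENSMUSG00000002985, chr7:19696109-19699188, minus strand) was measured at 5339, 9710 and 2396 CPM in F4/80high TAMs and at 2006, 5341 and 624 CPM in F4/80low TAMs. F4/80high was above F4/80low in each pair, by 2.66, 1.82 and 3.84 times, and F4/80low replicate 2 stood level with F4/80high replicate 1. The means were 5815 ± 3680 CPM (SD, n = 3) and 2657 ± 2425 CPM (SD, n = 3). The log2 fold change was 1.33 (SE 0.40, adjusted p = 0.504) in edgeR with the batch term and 1.40 (SE 0.21, adjusted p = 0.0347) with the block. DESeq2 with the batch term gave Apoe 1.34 (SE 0.90, adjusted p = 0.653). Apoe kept its call in the block fit without replicate 1 and without replicate 2, and within batch 1 alone its adjusted p was 0.180 in edgeR at a log2 fold change of 1.14.

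Spp1 (ENSMUSG00000029304, chr5:104435118-104441050, plus strand), the gene that often names these cells together with Trem2, was measured at 2149, 5848 and 1120 CPM in F4/80high TAMs and at 1946, 4487 and 983 CPM in F4/80low TAMs. Replicate 2 was high and replicate 3 low in both subsets, and the subsets overlapped over nearly their whole range. Within pairs the F4/80high library had 1.10, 1.30 and 1.14 times the level of its partner. The log2 fold change was 0.27 (SE 0.41, adjusted p = 0.904) in edgeR with the batch term and 0.24 (SE 0.16, adjusted p = 0.683) with the block. It turned to -0.28 without F4/80high replicate 2 and to -0.016 without F4/80low replicate 1, so its direction in that fit rested on single libraries. A gene model of unknown coding status, Gm42793, lies over Spp1 on the same strand and held 1476 counts over the 6 libraries, against 8615 or more for Spp1 in each.

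**Figure D1:**
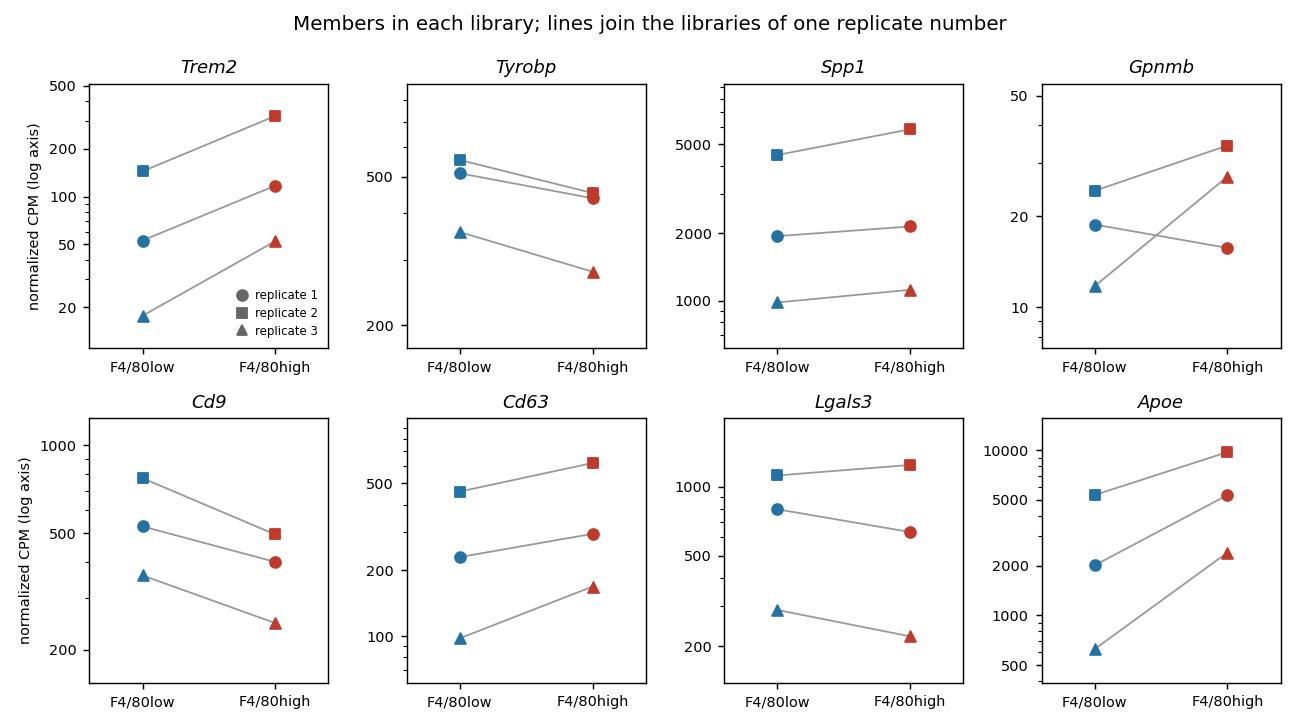
Normalized CPM (log axis) of the 8 genes in the 6 libraries; blue symbols are F4/80low, red symbols F4/80high, the symbol shape is the replicate number and grey lines join libraries of 1 number. The lines of Trem2 and Apoe climb in 3 of 3 pairs, those of Tyrobp and Cd9 go down in 3 of 3, and the highest library of each panel is from replicate 2.

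Of the lysosomal and lectin genes, Gpnmb (ENSMUSG00000029816, chr6:49036546-49070929, plus strand) was the scarcest, at 15.7, 34.2 and 27.0 CPM in F4/80high TAMs and 18.8, 24.3 and 11.8 CPM in F4/80low TAMs. F4/80low was higher in pair 1 and F4/80high in pairs 2 and 3, with pair log2 differences of -0.25, 0.50 and 1.20. In log2 terms the difference was 0.53 (SE 0.37, adjusted p = 0.741 in edgeR with the batch term, 0.703 with the block). It was measured from 103 to 1762 counts per library.

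Lgals3 (ENSMUSG00000050335, chr14:47367751-47386160, plus strand) was measured at 634, 1248 and 221 CPM in F4/80high TAMs and 797, 1122 and 289 CPM in F4/80low TAMs. It was higher in F4/80low in pairs 1 and 3 and higher in F4/80high in pair 2, and the means, 701 ± 517 CPM and 736 ± 420 CPM (SD, n = 3 each), lay well within each other's spread. In log2 terms the difference was -0.15 (SE 0.30, adjusted p = 0.933 in edgeR with the batch term, 0.803 with the block). With the batch term it turned to 0.061 without F4/80high replicate 1.

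The tetraspanins parted. Cd9 (ENSMUSG00000030342, chr6:125460266-125494791, minus strand) was measured at 399, 496 and 247 CPM in F4/80high TAMs and 528, 772 and 359 CPM in F4/80low TAMs. F4/80low was higher in each pair, by 1.32, 1.56 and 1.45 times, and the subsets overlapped through replicate 3 of F4/80low. The log2 fold change was -0.54 (SE 0.24, adjusted p = 0.654 in edgeR with the batch term, 0.339 with the block). Antisense or noncoding genes overlap Cd9: Gm28809 with 958 counts in all and Gm26728 with 84, and the strand setting of the counting is not given in the sources used here. Cd63 (ENSMUSG00000025351, chr10:128900989-128912822, plus strand) was measured at 294, 619 and 169 CPM in F4/80high TAMs and 230, 459 and 97.8 CPM in F4/80low TAMs. It was higher in F4/80high in each pair, by 1.28, 1.35 and 1.72 times, with a log2 fold change of 0.53 (SE 0.35, adjusted p = 0.731 in edgeR with the batch term, 0.391 with the block).

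**Figure D2:**
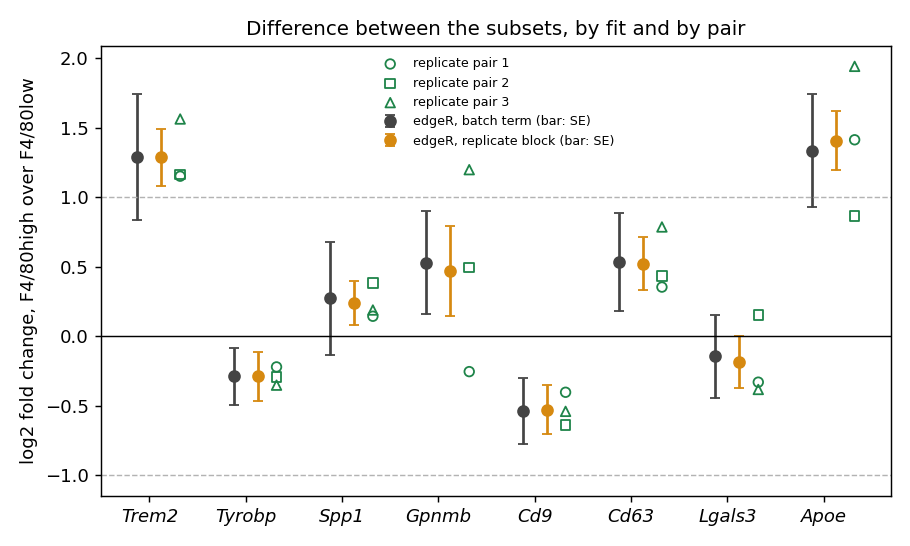
Log2 fold change of F4/80high over F4/80low for each gene: filled points are edgeR estimates with the batch term (grey) or the replicate block (orange), bars are 1 SE, open green symbols are the 3 replicate pairs, and dashed lines mark the fold threshold of the call. Trem2 and Apoe lie above 1 in both fits, and the SE of most members is smaller with the block.

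Counted over the 8 members, 5 had a positive and 3 a negative log2 fold change, with a median of 0.40 beside 0.0091 over all genes tested. Of the 8, 4 were higher in F4/80high in 3 of 3 pairs and 2 were higher in F4/80low in 3 of 3 pairs, where 16% and 15.9% of all genes were. A log2 fold change above 1 was held by 2 members, beside 7.29% of all genes. For 0 of 8 members did the libraries of the subsets stay apart without overlap, beside 5.2% of all genes. The members were chosen with earlier results of these data known, so these shares do not compare an unselected set with all genes.

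For 7 of the 8 genes, all but Gpnmb, the batch means differed by a larger ratio than the subset means. F4/80high replicate 2 was the highest of the 6 libraries for 6 members (Trem2, Spp1, Gpnmb, Cd63, Lgals3 and Apoe) and F4/80low replicate 2 for Tyrobp and Cd9, while the lowest library was one of the batch 2 pair for 8 of 8. Trem2 in batch 2 stood at 0.220 times its batch 1 mean, Lgals3 at 0.268, Apoe at 0.270, Spp1 at 0.291 and Cd63 at 0.333. Cd9, Tyrobp and Gpnmb varied less between the batches, at 0.552, 0.649 and 0.834 times. Between highest and lowest library Apoe spanned 15.6 times, Cd63 6.33, Spp1 5.95, Lgals3 5.64, Cd9 3.13 and Gpnmb 2.91. The 8 genes together took 0.165% of protein-coding counts in F4/80low replicate 3 and 2.26% in F4/80high replicate 2, of which Apoe alone made up 1.17%. For replicate 3, batch and the share of counts in the 3 features named above cannot be told apart. In sorted bulk samples, fewer cells of a type and less RNA per cell cannot be told apart either.

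To set the genes against one another, CPM was divided by the length of the longest coding transcript. Apoe was the most abundant, at 4130 ± 2614 CPM per kb (SD, n = 3) in F4/80high and 1887 ± 1722 in F4/80low TAMs, and ranked between 3rd and 153rd of 14618 genes. Spp1 followed at 2017 and 1640 CPM per kb, ranked 5th to 98th. Tyrobp stood at 652 and 792, Lgals3 at 494 and 519, Cd63 at 325 and 236, and Cd9 at 310 and 451 CPM per kb. Trem2 stood at 151 ± 130 CPM per kb in F4/80high and 65.8 ± 60.1 in F4/80low TAMs, below its adaptor in both. Gpnmb came last at 6.93 and 4.93 CPM per kb, with ranks of 5192 to 7958. Only between Trem2 and Gpnmb, the last neighbours in this order, did the library ranges not overlap in either subset. With the deposited gene length, which for Trem2 is 4946 bases against 1088 for the coding transcript, the Trem2 means become 33.2 and 14.5 CPM per kb.

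**Figure D3:**
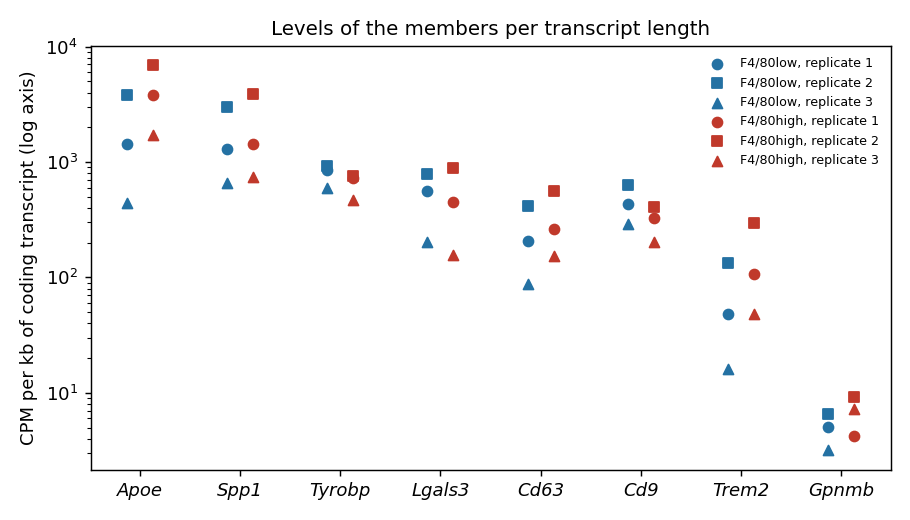
CPM per kb of the longest coding transcript (log axis) for the 8 genes in order of their F4/80high mean; blue is F4/80low, red F4/80high, the symbol shape is the replicate. Apoe and Spp1 lead, and Gpnmb lies below Trem2 in each library.

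The genes whose pattern over the 6 libraries was most like each member were named by the root-mean-square distance of centred log2 CPM, out of 7022 genes whose log2 CPM averaged 4 or more. The gene nearest to Trem2 was Apoe (distance 0.21), followed by Sepp1 (0.26), which encodes a secreted selenium carrier, and Mmp13 (0.30), a collagenase. For Apoe they were Sepp1 (0.15), Trem2 (0.21) and Olfml3 (0.29). All of these had positive log2 fold changes, 1.43 for Sepp1, 1.38 for Mmp13 and 1.86 for Olfml3. Spp1 was nearest to Rhoc (0.22), then Cd63 (0.22) and Nudt19 (0.23), and Cd63 to Nudt19 (0.14), Cmtm3 (0.17) and Dpagt1 (0.18). Tyrobp lay nearest to H13, Rnpc3 and Rhog (0.06 to 0.08), Cd9 to Pla2g7, Cklf and Nrm (0.12 to 0.15), and Lgals3 to Ccdc109b, Ninj1 and Sqrdl (0.13 to 0.17). Gpnmb lay nearest to Scamp1, Kpna2 and Gclc (0.12 to 0.14) and had no member close to it: 1756 genes were nearer to it than Tyrobp, its nearest member. These distances rest on 6 libraries, and all genes share the depth and batch of those libraries.

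Because Trem2 and Apoe were each other's nearest member and Spp1 was nearest to Cd63, the 200 bases before their RefSeq starts (GRCm38.p6) are shown, 5′ to 3′ on the gene's strand, for Trem2 (chr17:48346201-48346400, plus), Apoe (chr7:19699189-19699388, minus) and Spp1 (chr5:104434911-104435110, plus). Capitals mark matches to the letters searched. For each gene only the start farthest upstream was used. Apoe had 3 starts listed and Spp1 had 2, and their other starts were not searched.
Trem2: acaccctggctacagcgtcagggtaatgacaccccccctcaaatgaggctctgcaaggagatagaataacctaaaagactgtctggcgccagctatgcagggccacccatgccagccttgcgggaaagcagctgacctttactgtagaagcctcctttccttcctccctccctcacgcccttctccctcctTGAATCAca
Apoe: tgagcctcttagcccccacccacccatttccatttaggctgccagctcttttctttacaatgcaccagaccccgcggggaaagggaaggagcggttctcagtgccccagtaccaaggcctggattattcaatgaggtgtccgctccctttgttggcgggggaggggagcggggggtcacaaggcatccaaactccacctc
Spp1: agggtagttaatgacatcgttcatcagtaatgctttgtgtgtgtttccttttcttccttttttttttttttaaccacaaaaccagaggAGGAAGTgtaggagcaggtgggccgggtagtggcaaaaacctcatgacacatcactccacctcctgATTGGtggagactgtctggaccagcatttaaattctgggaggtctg
RefSeq starts were matched for 7 of 8 members; Tyrobp was not matched. The letters searched on both strands, with no overlap between the matches found, were CACGTG (an E-box bound by MiT/TFE factors), TGANTCA (a loose form of the AP-1 site that allows any middle base), AGGAAGT (PU.1), TATAAA and CCAAT. They occur in 5.26%, 5.48%, 6.34%, 9.96% and 29.3% of 32851 windows of the same length. Trem2 held TGAATCA, a match to the loose TGANTCA with A in the middle, 9 bases before its start. Spp1 held AGGAAGT 112 bases before and CCAAT, on the minus strand, 46 bases before, and Lgals3 held CCAAT 167 bases before. In the windows searched, Apoe, Gpnmb, Cd9 and Cd63 held none of these letters, so the windows shown for Trem2 and Apoe had no match in common.

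Among the receptors that, like TREM2, signal through DAP12, Trem2 was 1 of only 2 with a positive estimate. Of 14 tested, 12 had a negative log2 fold change, with a median of -0.34, 0 were called by edgeR with the batch term, 3 were lower in F4/80high at an unadjusted p under 0.05, and Trem2 was the 1 called by edgeR with the block. DESeq2 with the batch term called 1, Treml4, lower in F4/80high. Treml4 was measured at 18.5, 10.5 and 6.59 CPM in F4/80high and 42.5, 25.9 and 23.3 CPM in F4/80low TAMs, a log2 fold change of -1.42 (SE 0.34, adjusted p = 0.440 in edgeR and 0.0203 in DESeq2, both with the batch term). Trem1, an activating receptor of neutrophils and inflammatory monocytes, had -0.93 (SE 0.35, adjusted p = 0.594) and Cd300lb -0.72 (SE 0.23, adjusted p = 0.524). Siglech was the other receptor with a positive estimate, 0.46 (SE 0.76). Of the 14, 5 were higher in F4/80low and 1 in F4/80high in 3 of 3 pairs, beside 15.9% and 16% of all genes. Neutrophil markers were also lower in F4/80high, and their part in the receptor values was not tested. The sum of 8 neutrophil genes was 662 to 1870 CPM in F4/80high and 1382 to 4042 CPM in F4/80low TAMs, higher in F4/80low in 3 of 3 pairs. With the block, 5 of the 8 were called lower in F4/80high.

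Around TREM2, a list of 20 genes was tested, which held Tyrobp, signalling genes of both activating and inhibitory kinds, and the proteases Adam10 and Adam17. Of these, 9 had a positive and 11 a negative estimate, and 0 were called by either edgeR fit. Syk, the kinase that binds phosphorylated DAP12, had a log2 fold change of -0.78 (SE 0.30, adjusted p = 0.601), Plcg2, the phospholipase of the pathway, -0.65 (SE 0.26, adjusted p = 0.623) and Vav2, an exchange factor, 0.73 (SE 0.31, adjusted p = 0.639). Syk was higher in F4/80low in 3 of 3 pairs, like Tyrobp. Hcst, the DAP10 adaptor, had -0.23 (SE 0.35).

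Around apolipoprotein E, 23 genes of lipoprotein handling were tested, 11 with a positive and 12 with a negative estimate, with Apoe called by edgeR with the block and Pltp by DESeq2 with the batch term. Pltp, a plasma phospholipid transfer protein, was measured at 105, 234 and 33.7 CPM in F4/80high and 65.4, 80.7 and 13.5 CPM in F4/80low TAMs, a log2 fold change of 1.25 (SE 0.31, adjusted p = 0.440 in edgeR and 0.0329 in DESeq2, both with the batch term). Abca1, the cholesterol exporter that loads lipid onto apolipoproteins, had 0.90 (SE 0.30, adjusted p = 0.533), with F4/80high above F4/80low in each pair. Sort1, a sorting receptor, had -1.40 (SE 0.56, adjusted p = 0.623), and Lrp8, a receptor of apolipoprotein E, -0.96 (SE 0.41, adjusted p = 0.647). Apoc1, the neighbour of Apoe, was at 1.03 CPM or less in each library.

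Of 9 receptor genes of osteopontin tested, 5 had a positive and 4 a negative estimate, and 1, Itga9, was called by edgeR with the block and by DESeq2 with the batch term. Itga9 was measured at 28.2, 83.3 and 78.2 CPM in F4/80high and 7.73, 21.2 and 12.5 CPM in F4/80low TAMs, with no overlap of the subsets, and had a log2 fold change of 2.17 (SE 0.49, adjusted p = 0.440) in edgeR with the batch term, where DESeq2 gave an adjusted p of 0.00395, and 2.15 (SE 0.26, adjusted p = 0.0272) with the block. Cd44 had -0.68 (SE 0.24, adjusted p = 0.554) and Itga4 -0.91 (SE 0.28, adjusted p = 0.504), both higher in F4/80low in 3 of 3 pairs. Itgav had 0.41 (SE 0.21). Of the family of small integrin-binding phosphoproteins to which osteopontin belongs, 3 were tested, and Dmp1, a bone matrix protein, had -0.60 (SE 0.23, adjusted p = 0.614) against 0.27 for Spp1.

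Outside the 8 members, 28 other genes reported for lipid-associated macrophages were tested. This list was chosen with earlier results of these data known. Of the 28 genes, 21 had a positive and 7 a negative estimate, with a median log2 fold change of 0.29, and 0 were called by edgeR with the batch term. In 3 of 3 pairs, 11 were higher in F4/80high and 3 in F4/80low, beside 16% and 15.9% of all genes. DESeq2 with the batch term called 1, Igf1, and edgeR with the block called 1, Ch25h, which makes 25-hydroxycholesterol, at 9.97, 117 and 10.5 CPM in F4/80high and 2.16, 24.0 and 2.62 CPM in F4/80low TAMs, a log2 fold change of 2.18 (SE 0.26, adjusted p = 0.0272 in edgeR). Igf1, a growth factor, had 2.12 (SE 0.48, adjusted p = 0.440 in edgeR and 0.00557 in DESeq2) with the batch term, Mmp12, the macrophage elastase, 1.60 (SE 0.65, adjusted p = 0.629), and Ctsb, a lysosomal protease, 1.06 (SE 0.41, adjusted p = 0.607). Of the fatty acid genes, Lpl, lipoprotein lipase, had 0.49 (SE 0.32) and Fabp5, a fatty acid carrier, 0.47 (SE 0.32), both higher in F4/80high in 3 of 3 pairs. In the other direction, Ccl6, a chemokine, had -0.71 (SE 0.29, adjusted p = 0.629) and Itgax, which encodes CD11c, -0.62 (SE 0.24, adjusted p = 0.607). Csf1, the macrophage growth factor, was the third gene that was higher in F4/80low in 3 of 3 pairs.

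**Figure D4:**
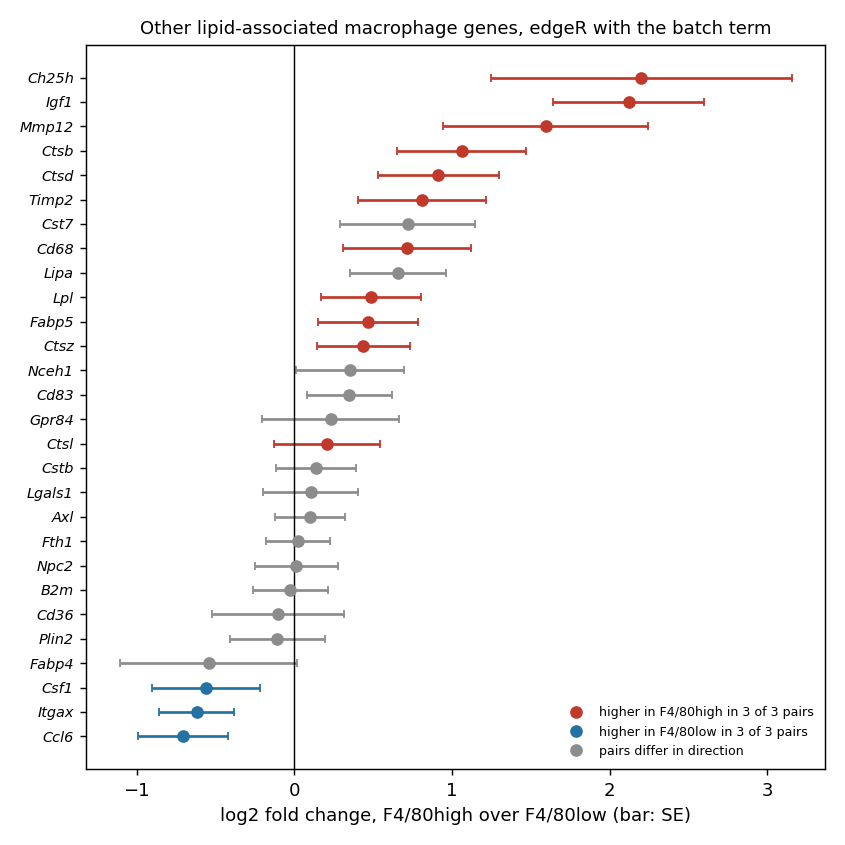
Log2 fold change of F4/80high over F4/80low with 1 SE, from edgeR with the batch term, for 28 further genes reported for lipid-associated macrophages; red genes were higher in F4/80high in 3 of 3 pairs, blue genes in F4/80low, and grey genes differed in direction between pairs. There are 11 red and 3 blue genes, beside 16% and 15.9% of all genes tested, and 0 passed the adjusted threshold in this edgeR fit.

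Spp1, Gpnmb and Trem2 are also expressed by osteoclasts, and 13 osteoclast genes were tested. Of these 4 had a positive and 9 a negative estimate, 0 were called by edgeR with the batch term, 1 (Mmp9) was called by edgeR with the block, and 2 (Dcstamp and Mmp9) by DESeq2 with the batch term. Mmp9, a gelatinase shared by osteoclasts and neutrophils, was measured at 164, 93.9 and 31.0 CPM in F4/80high and 568, 272 and 66.3 CPM in F4/80low TAMs, and its block log2 fold change was -1.48 (SE 0.21, adjusted p = 0.0304 in edgeR), with an adjusted p of 0.00699 in DESeq2 with the batch term. Dcstamp, which drives the fusion of osteoclast precursors, had -2.76 (SE 0.56, adjusted p = 0.434 in edgeR and 0.00256 in DESeq2, both with the batch term) and Ocstamp, which acts in the same fusion, -1.08 (SE 0.36, adjusted p = 0.524). Tnfrsf11a, the RANK receptor, had 0.73 (SE 0.31, adjusted p = 0.639). The neutrophil sums given above moved in the same direction as Mmp9, and their part was not tested.

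Gpnmb is a target of the MiT/TFE transcription factors, which switch on lysosome genes. Of 15 of these factors and lysosome genes, 13 had a positive estimate and 0 were called by either edgeR fit. Mitf had 0.64 (SE 0.23, adjusted p = 0.554) and Flcn, a regulator of these factors, 0.81 (SE 0.27, adjusted p = 0.533), while Tfeb had -0.83 (SE 0.27, adjusted p = 0.524). Mitf was at 11.4 to 21.6 CPM in batch 1 and at 104 and 167 CPM in batch 2, so it was high where most of the 8 members were low. A list of galectins and Lgals3bp, which encodes a protein bound by galectin-3, had 6 genes tested, Lgals3 among them. Of these, 3 estimates were positive and 3 negative, with 0 at an unadjusted p under 0.05 in edgeR. Lgals1 had 0.10 (SE 0.30), and Lgals3bp, counted among the positive estimates, had 0.13 (SE 0.26). Of 26 tetraspanins, 12 had a positive and 14 a negative estimate: Cd81 had 0.93 (SE 0.36, adjusted p = 0.601) like Cd63 in sign, and Tspan5 (-0.88, SE 0.23, adjusted p = 0.461) and Cd37 (-0.84, SE 0.30, adjusted p = 0.574) like Cd9.

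The lineage-negative gate is meant to leave out other lineages, but which markers it used is not given in the sources used here. Markers of other cell types were measured in both subsets beside these genes, and their part in the values of the 8 members was not tested. The sum of 11 macrophage genes was 6742 to 14593 CPM in F4/80high and 4931 to 7406 CPM in F4/80low TAMs, higher in F4/80high in 3 of 3 pairs, with 4 of the 11 called higher with the block, C1qa, C1qb, C1qc and Mertk. The list includes Adgre1, the gene of the sort marker. C1qa, C1qb and C1qc weighed heavily in the sum. They stood at 971, 1416 and 1050 CPM in F4/80high replicate 1 and at 199, 341 and 222 in F4/80low replicate 1. Of the 11 genes, 8 had a positive and 3 a negative estimate in edgeR with the batch term. Ptprc had -0.30 (SE 0.26), higher in F4/80low in 3 of 3 pairs, and Itgam -0.20 (SE 0.29). The 7 eosinophil genes summed to 90.0 to 177 CPM and 252 to 603 CPM, 6 dendritic cell genes to 73.5 to 262 and 132 to 475, and 7 fibroblast genes to 451 to 1541 and 1065 to 1906, each higher in F4/80low in 3 of 3 pairs. The 7 T and NK cell genes summed to 1125 CPM in F4/80high replicate 1 and to 90.7 to 513 CPM in the other 5 libraries. Spp1 and Gpnmb can also come from tumor cells. Of 13 melanoma symbols searched, 7 were found, while Tyr, Tyrp1, Dct, Slc45a2, Oca2 and Gpr143 were not. Mlana held 1 count in all and Pmel at most 77 counts in a library. S100b was highest in F4/80high replicate 2, at 264 counts (5.13 CPM), and Mc1r in F4/80high replicate 3, at 69 counts (7.46 CPM). The sum, 14.5 to 176 CPM, was mostly Mitf. For replicates 1, 2 and 3 it came to 21.0, 28.4 and 176 CPM in F4/80high TAMs. The F4/80low partners had smaller sums, of 16.0, 14.5 and 110 CPM. All 6 melanoma genes tested had a positive estimate, and 1 of them, Mitf, took that direction in each pair.

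**Figure D5:**
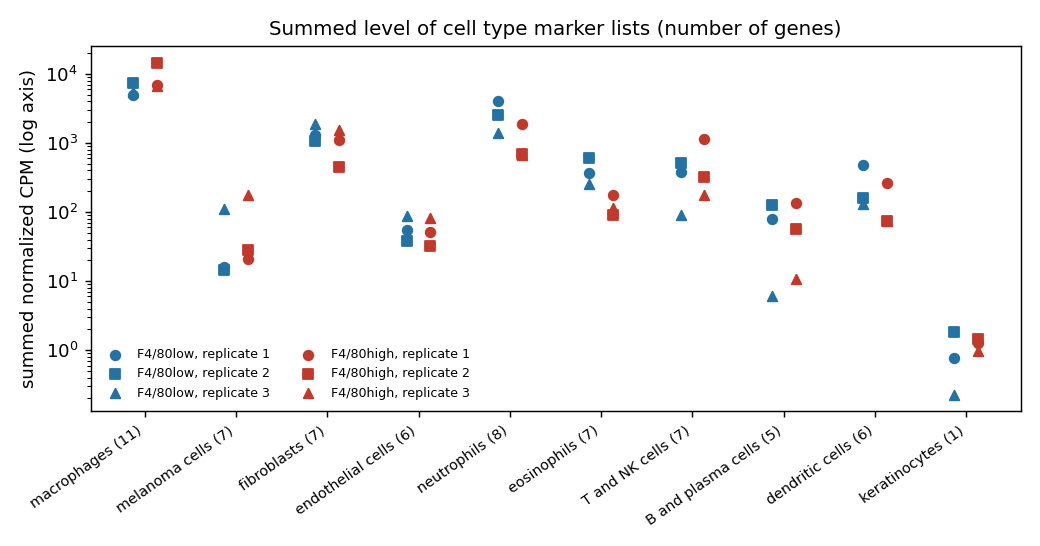
Summed normalized CPM (log axis) of the marker genes of each cell type in the 6 libraries, with the number of genes in parentheses; blue is F4/80low, red F4/80high, the symbol shape is the replicate. Macrophage and melanoma cell sums are higher in F4/80high, and neutrophil, eosinophil, dendritic cell, fibroblast and endothelial cell sums in F4/80low, within each replicate. The melanoma cell sum is mostly Mitf.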

How the data were processed

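Poly(A) RNA-seq was run on sorted TAMs of both subsets (n = 3 each). The deposited files hold raw counts per gene, made by the authors, 1 table per library, with a gene length that the authors also deposited; the aligner, the counting tool and its strand setting are not given in the sources used here, and 99.4% of gene identifiers were found in GENCODE M21 (GRCm38), from which positions, biotypes and transcripts were taken. After the study's methods, protein-coding genes with at least 10 counts over the 6 libraries were kept (14645). Counts were scaled by TMM and tested with edgeR 4.0.16 (quasi-likelihood, R 4.3.3) with batch as a term, on all genes tested together with Benjamini-Hochberg adjustment; calls required more than a 2-fold difference (log2 above 1 in size) with an adjusted p under 0.05. SEs were taken from the estimate and its F statistic. The text gives CPM on TMM-scaled library sizes. DESeq2 1.42.0 was an alternative here, although the study itself used DESeq2 to correct for batch and to call genes. The fits were also run on counts simulated with a batch effect and no pair effect. These counts cannot show how the block fit behaves where pairs differ.

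Libraries with the same replicate number were treated as pairs from the data, since no source states it. Over 10072 genes, the deviations of same-numbered libraries from their subset's mean had correlations of 0.745, 0.729 and 0.907 (within batch 1 alone, 0.242). Because these libraries also share a batch, the correlations of 0.745, 0.729 and 0.907 cannot tell pairing from batch. The difference between the batches does not enter the value of 0.242. The fit with the number as a block is printed for each member, and for other named genes where it changes a call. The members and gene lists were chosen with earlier results of these data known. Named genes are the members, up to 3 genes of each list with the smallest p in each direction, a set of partners, and the 3 genes nearest to each member; Ch25h and the macrophage genes called with the block were named after their values were seen. The p-values measure the spread between these pooled libraries. Of the lipid-associated genes listed, Lilrb4a was not found under that symbol and Clec7a is not protein-coding in the annotation used.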

Additional observations from a re-analysis of the deposited data

How the results depend on the processing

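With the batch term 0 genes were called, 1113 stood at an unadjusted p under 0.05, and 0 members were called. DESeq2 with the batch term called 150 genes (1380 at an unadjusted p under 0.05). The replicate block, which compares the subsets within pairs of the same replicate number, called 76 genes and 2 members (Trem2 and Apoe). Chosen after seeing the data, DESeq2 with the block called 356 genes and 2 members; the block without replicate 1 of both subsets called 378 genes and 2 members, without replicate 2 of both 66 genes and 1 member (Apoe), and in batch 1 alone 23 genes and 0 members. Leaving out 1 library at a time with the batch term called 0 to 77 genes, the 77 without F4/80high replicate 1, and 0 members each time. The cause of these differences was not tested. Spp1 was reversed to -0.28 without F4/80high replicate 2 and to -0.016 without F4/80low replicate 1, and Lgals3 to 0.061 without F4/80high replicate 1. The remaining 6 members kept their direction in each of the 21 alternatives: log2 fold changes ran from 0.77 to 1.85 for Trem2, 1.03 to 1.92 for Apoe, 0.18 to 0.90 for Cd63, 0.12 to 0.89 for Gpnmb, -0.68 to -0.37 for Cd9 and -0.34 to -0.24 for Tyrobp, beside -0.28 to 0.67 for Spp1 and -0.54 to 0.061 for Lgals3. Adjusted p-values over those alternatives ran from 6.5e-06 to 1 for Trem2, from 1.13e-06 to 1 for Apoe and from 0.170 to 1 for Cd9. The block changed no other member's call. The 21 alternatives were not separate checks. The call rule by adjusted p alone kept the estimates of the main fit. With the batch term, leaving out either replicate 3 library gave Trem2 a log2 fold change of 1.16, as did batch 1 alone. Another scaling, count filter, biotype source or call rule called 0 genes in edgeR. Depth limits Gpnmb most, which had 103 counts in F4/80low replicate 3.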
